A study of Mus musculus with 12 samples.

Results

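The 10 genes described here belong to Notch signalling and to the segmentation clock, and were followed through 12 bulk RNA sequencing libraries: the ligands Dll1 and Dll3, the receptors Notch1, Notch2 and Notch3, the glycosyltransferase Lfng and the target genes Hes1, Hes7, Hey1 and Nrarp. They were taken by symbol, 10 of the 24736 genes in the expression table, and all 10 were among the 14196 genes with enough counts to be tested. Each library came from mouse embryonic stem cells differentiated for 72 h with bFGF at 10 ng/ml and LGK974 at 5 µM, a porcupine inhibitor that stops cells from secreting WNT ligands. There were 4 groups of 3 libraries. EpiLC (epiblast-like cells) were wild type and received no further factor. CEpiLC (caudal epiblast-like cells) were wild type and received CHIR99021, a GSK3 inhibitor that activates the WNT pathway, from day 2 to day 3. SOX2-OFF and SOX2-ON received CHIR99021 over the same period and came from the SOX2 TetON line, a single clone derived from the wild-type line, with no intact copy of Sox2 and a Sox2 transgene under doxycycline control at Hprt. The wild-type control was the parental HM1 TetON line, and per the study's methods rtTA was expressed from Rosa26 before the transgene was added, so that all 4 groups carried it. Doxycycline was withdrawn in SOX2-OFF and kept at 1 µg/ml in SOX2-ON. The TetON line differed from the wild type in every comparison across lines, so that the effect of the line and that of SOX2 cannot be told apart there, SOX2-ON and SOX2-OFF differed in doxycycline as well as in SOX2, and no TetON culture without CHIR99021 was analysed here. The labels call the replicates biological without saying whether they were separate experiments. The study states that the data of all its statistical analyses came from at least 3 independent experiments. The p-values measure the spread between these libraries.

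Notch receptors are cut when they bind a ligand on a neighbouring cell, and the freed intracellular domain joins RBPJ and MAML proteins in the nucleus to activate target genes. DLL1 activates receptors on neighbouring cells, whereas DLL3 stays largely inside the cell and does not activate them. LFNG adds a sugar to the receptors that changes their response to ligands. HES and HEY proteins are repressors that bind DNA, and NRARP is a feedback inhibitor that shortens the life of the receptor's intracellular domain. In the presomitic mesoderm of the mouse embryo these genes form part of the segmentation clock, in which Hes7, Lfng and Nrarp are transcribed in waves and HES7 represses its own gene and Lfng. WNT and FGF signals keep this tissue undifferentiated, and the transcription factors TBX6 and MSGN1 are required for it and for normal Dll1 expression.

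The sequences at the starts of Hes7, Lfng and Nrarp, named above as transcribed in waves, are given, since RBPJ and the HES repressors are known to act on clock genes. Other genes of the set may cycle too. Each runs from 250 bases before to 50 bases after an annotated RefSeq transcript start in GRCm38.p6, 5′ to 3′ on the strand of the gene, which is the plus strand in all 3. Capitals mark matches on either strand to TGGGAA (the core of the RBPJ motif, present in 25.6% of 32851 windows of this length around RefSeq starts), to the E-box CACGTG (7.15%) or to the N-box CACNAG (42.5%).
Hes7, chr11:69120203-69120502: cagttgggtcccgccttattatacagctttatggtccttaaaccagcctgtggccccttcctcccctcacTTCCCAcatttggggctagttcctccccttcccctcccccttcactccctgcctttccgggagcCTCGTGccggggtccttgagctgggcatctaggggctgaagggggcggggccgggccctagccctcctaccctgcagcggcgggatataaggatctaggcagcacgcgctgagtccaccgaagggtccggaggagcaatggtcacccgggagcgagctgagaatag
Lfng, chr5:140607091-140607390: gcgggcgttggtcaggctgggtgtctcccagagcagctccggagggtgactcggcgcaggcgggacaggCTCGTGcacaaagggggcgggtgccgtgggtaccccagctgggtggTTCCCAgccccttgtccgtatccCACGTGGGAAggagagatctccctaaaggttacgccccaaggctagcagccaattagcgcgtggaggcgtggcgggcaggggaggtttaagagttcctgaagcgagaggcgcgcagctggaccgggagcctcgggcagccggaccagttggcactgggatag
Nrarp, chr2:25180508-25180807: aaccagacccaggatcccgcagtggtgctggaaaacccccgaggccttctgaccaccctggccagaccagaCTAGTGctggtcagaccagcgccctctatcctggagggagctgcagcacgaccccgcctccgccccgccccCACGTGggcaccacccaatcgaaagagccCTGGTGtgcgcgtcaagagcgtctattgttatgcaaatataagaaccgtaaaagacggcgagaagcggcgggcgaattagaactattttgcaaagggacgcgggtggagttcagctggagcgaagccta
Hes7 held 1 RBPJ core, whose first base lay at position -180 from the start, and 1 N-box at -116. Lfng held 1 N-box at -181 and RBPJ cores at -135 and -108, and the second of these cores shared bases with an E-box at -112. Nrarp held an E-box at -108, N-boxes at -179 and -79, and no RBPJ core. RefSeq windows were at hand for 8 of the 10 genes, all but Hes1 and Hey1. Among these, the RBPJ core was found in Hes7 and Lfng only, and the E-box in Lfng and Nrarp only. These matches describe the letters in these windows and are not evidence of binding.

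Sox2, examined first because the groups rest on it, read 119 to 171 TPM (transcript level scaled for gene length and library size) in EpiLC, 7.78 to 13.7 in CEpiLC, 12.3 to 21.2 in SOX2-OFF and 173 to 215 in SOX2-ON. The mean of SOX2-OFF, 16.5 TPM, was thus not below the 10.4 of CEpiLC. These are RNA levels of the gene as a whole and do not give the level of intact SOX2 protein. Libraries held 10408242 to 27337740 counts. CEpiLC replicate 3, the shallowest, stood apart from the other 2 of its group: the summed level of 7 paraxial mesoderm markers was 457 TPM there against 77.1 and 121, with Mesp2, Ripply2, Meox1 and Foxc2 under 1 TPM in every CEpiLC library. SOX2-OFF replicate 3 held 206 TPM against 116 and 98.9, and these sums were 0.93 to 3.16 in EpiLC and 1.95 to 4.26 in SOX2-ON. All 7 epiblast markers were above 1 TPM in every library, and their sum was 2760 to 3190 TPM across EpiLC, 849 to 1190 across CEpiLC, 968 to 1130 across SOX2-OFF and 1510 to 1770 across SOX2-ON. The list includes Sox2 itself, and Pou5f1 alone read 985 to 1160 TPM in SOX2-ON. Pou3f1 and Fgf5 averaged 2.04 and 4.48 TPM in SOX2-ON, below the 4.57 and 5.19 of CEpiLC, whereas Sox2, Pou5f1, Utf1, Otx2 and Dnmt3b were higher on average in SOX2-ON. The 6 primitive streak markers summed to 3.17 to 4.80 TPM in EpiLC, 600 to 1160 in CEpiLC, 1020 to 1150 in SOX2-OFF and 156 to 193 in SOX2-ON. T made up most of these sums in CEpiLC and SOX2-OFF, with means of 711 and 809 TPM, and the other markers did not move together. Mean Eomes, Mixl1 and Wnt3 were 4.25, 54.3 and 12.3 TPM in CEpiLC and 45.9, 160 and 25.8 in SOX2-OFF. Wnt3a and Fgf8 went the other way, from 58.6 and 62.1 TPM in CEpiLC to 10.7 and 26.3 in SOX2-OFF. Neural markers also differed by group, with sums of 137 to 170 TPM across EpiLC, 32.1 to 46.7 across CEpiLC, 44.0 to 57.6 across SOX2-OFF and 85.9 to 112 across SOX2-ON, and Olig2 was under 1 TPM in each group. The part of these marker differences in the values below was not tested. Over all libraries, endothelial markers summed to 4.22 to 22.3 and feeder fibroblast ones to 18.2 to 83.0. Markers of extraembryonic endoderm summed to 268 to 314 TPM in SOX2-OFF and 95.2 to 273 in SOX2-ON against 5.75 to 12.8 in the wild-type groups, with Afp and Apoa1 under 1 TPM, and their part in the differences between the lines was not tested. In bulk RNA, fewer cells of a type and less RNA per cell cannot be told apart.

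CHIR99021 in wild-type cells raised most of the set. In CEpiLC against EpiLC, Dll1, Dll3, Notch1, Notch3, Hes1, Hes7 and Nrarp were higher, 7 of the 10 genes, at an adjusted p of at most 0.05 in edgeR (a quasi-likelihood test, adjusted by Benjamini and Hochberg's method over all genes tested), where 22.1% of all genes tested were higher and 20.1% lower. The count of lower genes was 0 in edgeR and in limma-voom, and 1 at an unadjusted p under 0.05 or in DESeq2, namely Notch2. The 7 higher genes, and no others of the 10, had groups that did not overlap, as had 52.3% of all genes tested. The median log2 fold change was 0.91 over the 10 genes and 0.01 over all genes.

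In both TetON groups, Notch3 and Hes1 stood above CEpiLC, and Dll1, Dll3, Hes7 and Nrarp below it. SOX2-OFF against CEpiLC had these 2 higher (23.6% of all genes were) and these 4 and Hey1, in all 5, lower (24.9%), with 6 not overlapping (55.3%). SOX2-ON against CEpiLC also had 2 higher (27.9%) and, with Notch1 in place of Hey1, 5 lower (28.6%), with 7 not overlapping (59.9%). Within the line, SOX2-ON against SOX2-OFF had 1 gene higher, Hey1 (14.8% of all genes), and 1 lower, Dll3 (14.1%), with 5 not overlapping (43.8%). When only those 6 libraries were fitted, 4 were lower, namely Dll1, Dll3, Notch1 and Nrarp. Against EpiLC, 4 were higher (30.7%) and 2 lower (29.1%) in SOX2-ON, with 7 not overlapping (66.1%), and 6 were higher (31.5%) and 1 lower (30.6%) in SOX2-OFF, with 8 not overlapping (69.2%). The medians over the 10 genes were -1.04 for SOX2-OFF and -0.85 for SOX2-ON beside CEpiLC, -0.30 for SOX2-ON beside SOX2-OFF, and 0.43 and 1.12 in SOX2-ON and SOX2-OFF against EpiLC, where those over all genes lay between -0.01 and 0.01. These comparisons share libraries, and their values are therefore given side by side for each gene.

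**Figure D1:**
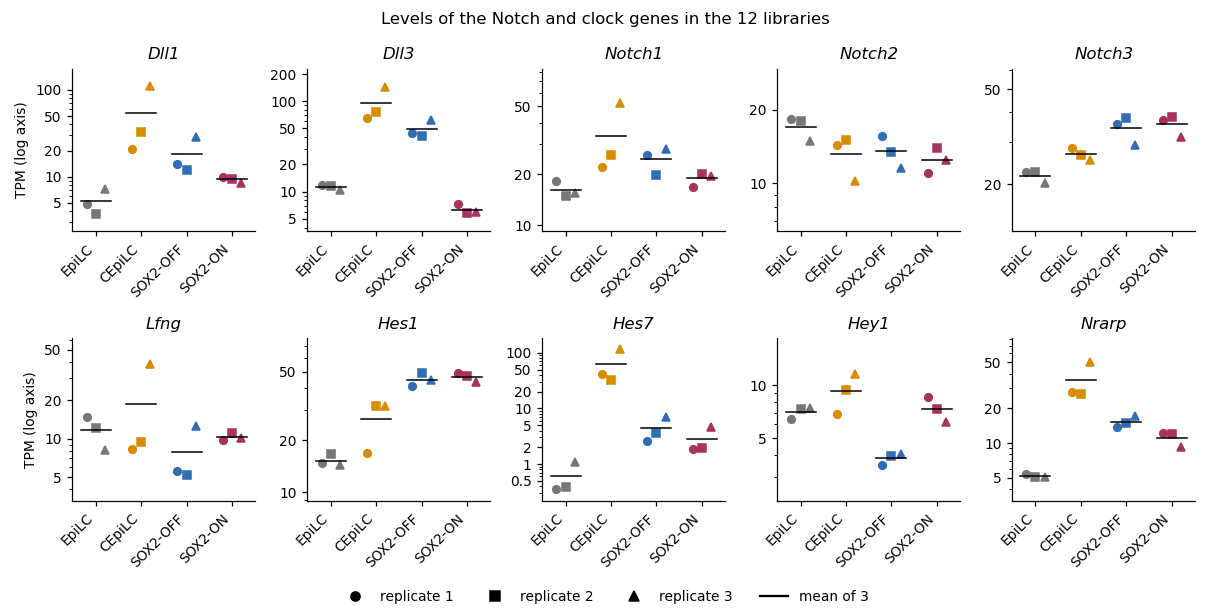
Level of each gene in TPM (log axis, scaled separately for each gene) in the 12 libraries, with the replicates as symbols and the mean of 3 as a line. Dll1, Dll3, Hes7 and Nrarp peak in CEpiLC, Hes1 and Notch3 are highest in the TetON groups, and CEpiLC replicate 3 is the highest library of all for Dll1, Dll3, Notch1, Lfng, Hes7, Hey1 and Nrarp.

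Of the ligands, Dll3 (chr7:28293555-28301785) was the gene on which SOX2-ON and SOX2-OFF differed most. It read 11.7, 11.4 and 10.5 TPM across EpiLC, 65.1, 75.9 and 144 across CEpiLC, 45, 41.5 and 62.8 across SOX2-OFF and 7.25, 5.82 and 5.92 across SOX2-ON. No library of one group overlapped with another group, and the order was CEpiLC, SOX2-OFF, EpiLC and SOX2-ON. The log2 fold change was 3.08 ± 0.277 (SE) in CEpiLC against EpiLC (edgeR, adjusted p = 2.1e-06) and -3.02 ± 0.294 in SOX2-ON against SOX2-OFF (edgeR, adjusted p = 8.84e-06). SOX2-OFF was lower than CEpiLC by a smaller step, -0.91 ± 0.249 (edgeR, adjusted p = 0.00827), which was -0.48 without CEpiLC replicate 3 (edgeR, adjusted p = 0.0218). SOX2-ON lay below CEpiLC at -3.93 ± 0.295 (edgeR, adjusted p = 2.77e-07), and SOX2-OFF above EpiLC by 2.17 ± 0.276 (edgeR, adjusted p = 1.67e-05). SOX2-ON was also lower than EpiLC, the group without CHIR99021, at -0.85 ± 0.310 (edgeR, adjusted p = 0.0301). That last call was lost in limma-voom (adjusted p = 0.132) and, in edgeR, when EpiLC replicate 1 or 2 or SOX2-ON replicate 2 or 3 was left out, with adjusted p of 0.0749, 0.0654, 0.0870 and 0.0836.

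Dll1 (chr17:15367354-15376932), the activating ligand, read 4.85, 3.78 and 7.27 TPM across EpiLC and 21.0, 32.8 and 110 in CEpiLC. Across SOX2-OFF it read 14.0, 11.9 and 28.6 TPM and across SOX2-ON 9.94, 9.46 and 8.58. CEpiLC replicate 3 was over 3 times the next library, and SOX2-OFF overlapped with CEpiLC. Dll1 rose in CEpiLC against EpiLC with a log2 fold change of 3.38 ± 0.562 (edgeR, adjusted p = 0.000371), and without CEpiLC replicate 3 the value was 2.36 (edgeR, adjusted p = 0.000152). It was lower in SOX2-ON than in CEpiLC at -2.56 ± 0.529 (edgeR, adjusted p = 0.0011), or -1.55 without that replicate (edgeR, adjusted p = 0.00141). The lower level in SOX2-OFF, -1.57 ± 0.507 (edgeR, adjusted p = 0.0206), was -0.55 and no longer called without that replicate (edgeR, adjusted p = 0.175). It was not called either without SOX2-OFF replicate 1 or 2 (edgeR, adjusted p = 0.0774 and 0.0857), in a fit of these 6 libraries (edgeR, adjusted p = 0.0648) or in limma-voom (adjusted p = 0.0563).

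The lower part of the order of Dll1 was SOX2-OFF, SOX2-ON and EpiLC. SOX2-ON lay below SOX2-OFF in every library, at -0.99 ± 0.532, yet this did not pass the test (edgeR, adjusted p = 0.186). When only these 6 libraries were fitted, the same size passed (edgeR, adjusted p = 0.0319). SOX2-ON exceeded EpiLC in all 3 libraries, by 0.81 ± 0.573, without passing (edgeR, adjusted p = 0.238). In a fit of only the EpiLC and SOX2-ON libraries the value was 0.80 and passed (edgeR, adjusted p = 0.00578). SOX2-OFF was higher than EpiLC by 1.81 ± 0.563 (edgeR, adjusted p = 0.0133), a call lost without EpiLC replicate 2 or SOX2-OFF replicate 3 (edgeR, adjusted p = 0.0547 and 0.0644).

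Seen against the other ligands, the make-up of ligand RNA differed by group. Over Dll1, Dll3, Dll4, Jag1 and Jag2, the summed level was 43.7 ± 1.75 TPM (SD, n = 3) across EpiLC, 179 ± 92.9 across CEpiLC, 91.9 ± 21.4 across SOX2-OFF and 69.2 ± 5.50 across SOX2-ON. Dll3 made up 54.1% ± 3.33 of it in CEpiLC and 54.2% ± 1.00 in SOX2-OFF, but 9.13% ± 0.467 in SOX2-ON and 25.6% ± 2.33 in EpiLC. The Jagged ligands held most of the sum in EpiLC, with Jag1 at 18.6% ± 3.44 and Jag2 at 42.8% ± 4.59, and in SOX2-ON, with Jag1 at 38.3% ± 1.02 and Jag2 at 38.9% ± 1.20, against 7.36% ± 1.38 and 11.6% ± 5.68 in CEpiLC. The 2 Delta ligands and the 2 Jagged ligands thus exchanged rank between CEpiLC and SOX2-ON. Jag1 read 28.7, 26.4 and 24.4 TPM in SOX2-ON and 7.97, 6.14 and 8.53 in SOX2-OFF, a log2 fold change of 1.77 ± 0.202 (edgeR, adjusted p = 3.19e-05). Dll4 never exceeded 0.62 TPM and was not tested. Jag2 was singled out after its values were seen.

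**Figure D2:**
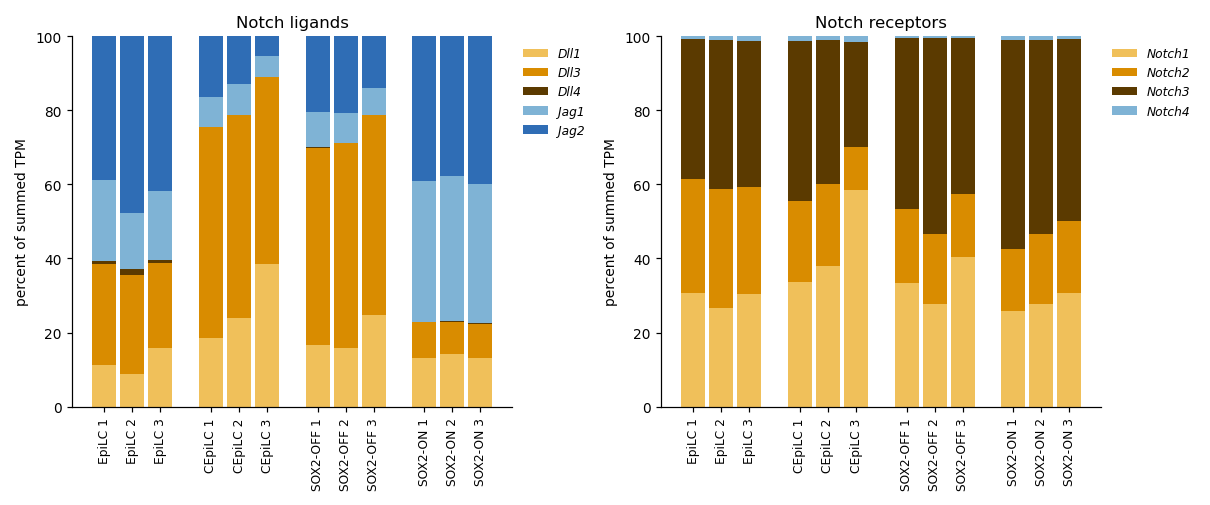
Share of each ligand (left) and each receptor (right) in the summed TPM of its class, in percent, with 1 bar per library. Dll3 fills about the same part of each CEpiLC and SOX2-OFF bar, from 50.5 to 57.0%, and 8.68 to 9.61% in SOX2-ON, where Jag1 and Jag2 dominate.

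Notch1 (chr2:26457902-26503822) read 18.3, 14.8 and 15.6 TPM across EpiLC, 22.1, 25.9 and 52.1 across CEpiLC, 25.8, 19.9 and 28.0 across SOX2-OFF and 16.9, 20.1 and 19.6 across SOX2-ON. CEpiLC lay above EpiLC in every library and again had 1 high one. Notch1 was higher in CEpiLC than in EpiLC by 1.03 ± 0.253 on the log2 scale (edgeR, adjusted p = 0.00545), or 0.56 without CEpiLC replicate 3 (edgeR, adjusted p = 0.00563). SOX2-ON was lower than CEpiLC at -0.85 ± 0.251 (edgeR, adjusted p = 0.0112), or -0.37 without that replicate (edgeR, adjusted p = 0.0306). Neither neighbouring pair in the order CEpiLC, SOX2-OFF and SOX2-ON passed the test, at -0.42 for SOX2-OFF against CEpiLC (edgeR, adjusted p = 0.183) and -0.43 for SOX2-ON against SOX2-OFF (edgeR, adjusted p = 0.228). The first of these was -0.64 and passed without CEpiLC replicate 1 (edgeR, adjusted p = 0.0389) and was 0.05 without CEpiLC replicate 3 (edgeR, adjusted p = 0.771). SOX2-ON and EpiLC differed by 0.18 (edgeR, adjusted p = 0.557). SOX2-OFF against EpiLC, at 0.61 ± 0.253, lay at the threshold (edgeR, adjusted p = 0.0507) and passed without SOX2-OFF replicate 2 (edgeR, adjusted p = 0.0346).

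Notch3 (chr17:32120820-32166896) read 22.5, 22.4 and 20.3 TPM across EpiLC, 28.4, 26.6 and 25.3 across CEpiLC, 35.6, 38.0 and 29.2 across SOX2-OFF and 37.1, 38.2 and 31.5 across SOX2-ON. Both TetON groups lay above both wild-type groups, with no overlap, and overlapped with each other. The log2 difference between SOX2-ON and SOX2-OFF was 0.00 ± 0.0963 (edgeR, adjusted p = 0.989), and against EpiLC both were higher, by 0.68 ± 0.0973 and 0.67 ± 0.0976 (edgeR, adjusted p = 5.28e-05 and 5.15e-05). They were higher than CEpiLC as well, by 0.37 in each case (edgeR, adjusted p = 0.00527 for SOX2-ON and 0.00667 for SOX2-OFF). The step from EpiLC to CEpiLC, 0.31 ± 0.0976 (edgeR, adjusted p = 0.0231), was lost without EpiLC replicate 3 or CEpiLC replicate 1 (edgeR, adjusted p = 0.0895 and 0.0888).

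Notch2 (chr3:98013538-98150367) went the other way, though by little. It read 18.4, 17.9 and 14.9 TPM across EpiLC, 14.4, 15.1 and 10.2 across CEpiLC, 15.6, 13.4 and 11.6 across SOX2-OFF and 11, 13.9 and 12.5 across SOX2-ON. Only SOX2-ON against EpiLC passed, at -0.49 ± 0.137 (edgeR, adjusted p = 0.00757), and the 3 groups with CHIR99021 did not differ detectably from each other. CEpiLC against EpiLC was -0.35 ± 0.137 (edgeR, adjusted p = 0.0535), and with the replicate number as a block it was -0.36 and passed (edgeR, adjusted p = 0.0129). It also passed without EpiLC replicate 3 or CEpiLC replicate 2 (edgeR, adjusted p = 0.0298 and 0.0361). SOX2-OFF against EpiLC was -0.32 ± 0.138 (edgeR, adjusted p = 0.0613) and passed without EpiLC replicate 3 or SOX2-OFF replicate 1 (edgeR, adjusted p = 0.0287 and 0.0355).

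The make-up of receptor RNA followed from these values. Of the summed level of Notch1 to Notch4, which was 55.6 ± 4.11 TPM (SD, n = 3) in EpiLC and 74.3 ± 12.7, 72.8 ± 4.17 and 67.6 ± 4.68 in CEpiLC, SOX2-OFF and SOX2-ON, Notch3 held 39.2% ± 1.3, 36.9% ± 7.61, 47.1% ± 5.45 and 52.6% ± 3.73 in that order. Notch2 held 30.6% ± 1.63 in EpiLC and 18.4 to 18.6% on average in the other groups. In CEpiLC replicate 3, Notch1 held 58.6% and Notch3 28.4%. Notch4 was at most 1.43% of the sum in any library.

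Lfng (chr5:140607341-140615545), whose start region is printed above with its 2 RBPJ cores, passed the test in 0 of the 6 comparisons in edgeR, as in DESeq2 and limma-voom, and in 1 of them at an unadjusted p under 0.05 (SOX2-OFF against CEpiLC). It read 14.7, 12.2 and 8.09 TPM across EpiLC, 8.28, 9.47 and 38.5 across CEpiLC, 5.59, 5.22 and 12.6 across SOX2-OFF and 9.77, 11.1 and 10.2 across SOX2-ON. CEpiLC replicate 3 was over 4 times its fellow libraries, whereas the 3 SOX2-ON libraries lay close together. The log2 fold change in CEpiLC against EpiLC was 0.62 ± 0.504 (edgeR, adjusted p = 0.347) and turned to -0.42 without CEpiLC replicate 3 (edgeR, adjusted p = 0.334). SOX2-OFF against CEpiLC was -1.24 ± 0.529 (edgeR, adjusted p = 0.0691). It passed with no filter on low counts (edgeR, adjusted p = 0.0480) and without CEpiLC replicate 1, CEpiLC replicate 2 or SOX2-OFF replicate 3 (edgeR, adjusted p = 0.0203, 0.0298 and 0.0277), and was -0.20 without CEpiLC replicate 3 (edgeR, adjusted p = 0.647). With the replicate number as a block it passed in a fit of these 6 libraries (-1.03, edgeR, adjusted p = 0.00368) and not in that of 12 (-1.12, edgeR, adjusted p = 0.0706). SOX2-ON against CEpiLC was -0.84 ± 0.509 (edgeR, adjusted p = 0.176), or 0.20 without CEpiLC replicate 3. SOX2-ON against SOX2-OFF was 0.40 ± 0.534, and against EpiLC the values were -0.22 ± 0.510 in SOX2-ON and -0.61 ± 0.530 in SOX2-OFF (edgeR, adjusted p = 0.623, 0.729 and 0.328).

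Hes7 (chr11:69118906-69124054), the repressor at the core of the clock, had the largest fold change of the 10 genes in 5 of the 6 comparisons, all but SOX2-ON against SOX2-OFF. It read 0.35, 0.38 and 1.10 TPM in EpiLC, from 3 to 6 counts per library, and 42.1, 32.3 and 115 in CEpiLC, from 245 to 508 counts. Across SOX2-OFF it read 2.63, 3.57 and 7.07 TPM and across SOX2-ON 1.84, 1.98 and 4.61, all below the lowest CEpiLC library. The log2 fold change in CEpiLC against EpiLC was 6.78 ± 0.686 (edgeR, adjusted p = 6.13e-06), and 6.03 without CEpiLC replicate 3. Both TetON groups were lower than CEpiLC, SOX2-OFF at -3.86 ± 0.525 (edgeR, adjusted p = 5.18e-05) and SOX2-ON at -4.51 ± 0.543 (edgeR, adjusted p = 1.41e-05). Without CEpiLC replicate 3 these were -3.10 and -3.76 (edgeR, adjusted p = 2.41e-05 and 4.83e-06). The TetON groups did not differ detectably from each other, at -0.65 ± 0.654 (edgeR, adjusted p = 0.496).

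Hes7 lies on chromosome 11, where the median log2 difference of the TetON line from the wild type was -0.55, while it was no further from 0 than -0.03 on the chromosomes of the other 9 genes. With this shift removed, SOX2-OFF and SOX2-ON were still lower than CEpiLC, at -3.31 and -3.95 (edgeR, adjusted p = 0.000261 and 5.67e-05). Against EpiLC, Hes7 was higher in SOX2-OFF, by 2.92 ± 0.879 (edgeR, adjusted p = 0.0109), and in SOX2-ON, by 2.27 ± 0.925 (edgeR, adjusted p = 0.0486). In limma-voom neither of these passed (adjusted p = 0.106 and 0.222). In edgeR the SOX2-ON value was also lost without EpiLC replicate 1 or 2 or SOX2-ON replicate 2 or 3 (adjusted p = 0.137, 0.130, 0.0517 and 0.186). With the chromosome shift removed, the values against EpiLC were 3.45 in SOX2-OFF and 2.81 in SOX2-ON (edgeR, adjusted p = 0.0037 and 0.0173).

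Nrarp (chr2:25180758-25183339) read 5.40, 5.06 and 5.06 TPM across EpiLC and 27.5, 26.6 and 50.8 in CEpiLC. It read 13.9, 14.9 and 17.1 TPM across SOX2-OFF and 12.2, 12 and 9.18 across SOX2-ON. The 4 groups did not overlap, and the TetON groups lay between the wild-type groups. The log2 fold change was 2.75 ± 0.239 in CEpiLC against EpiLC (edgeR, adjusted p = 1.61e-06), -1.17 ± 0.219 in SOX2-OFF against CEpiLC (edgeR, adjusted p = 0.000663) and -1.67 ± 0.223 in SOX2-ON against CEpiLC (edgeR, adjusted p = 3.31e-05). Without CEpiLC replicate 3 the last 2 were -0.81 and -1.31 and still called (edgeR, adjusted p = 0.000309 and 5.22e-06). SOX2-ON and SOX2-OFF, neighbours in the order, did not pass at -0.50 ± 0.227 (edgeR, adjusted p = 0.117), but both exceeded EpiLC, by 1.07 ± 0.243 and 1.58 ± 0.242 (edgeR, adjusted p = 0.00192 and 8.74e-05).

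Hes1 (chr16:30065357-30067796), a Notch target in many tissues that also responds to other signals, had another order. It read 14.7, 16.6 and 14.3 TPM across EpiLC, 16.8, 31.5 and 31.5 across CEpiLC, 41.4, 48.8 and 44.8 across SOX2-OFF and 48.9, 47.2 and 43.5 across SOX2-ON. CEpiLC replicate 1 lay close to EpiLC, and the TetON libraries were all above the wild type. SOX2-ON and SOX2-OFF exceeded CEpiLC by 0.80 ± 0.187 and 0.80 ± 0.188 (edgeR, adjusted p = 0.00262 and 0.00318) and EpiLC by 1.59 ± 0.194 and 1.59 ± 0.195 (edgeR, adjusted p = 1.29e-05 and 1.2e-05). The difference between them was 0.00 in size with an SE of 0.182 (edgeR, adjusted p = 0.989). CEpiLC exceeded EpiLC by 0.79 ± 0.198 (edgeR, adjusted p = 0.00634), a call that no single left-out library ended but that did not pass when replicate 3 of every group was left out (edgeR, adjusted p = 0.0763).

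Hey1 (chr3:8663359-8667038) was set apart by its low level in SOX2-OFF. It read 6.45, 7.33 and 7.45 TPM across EpiLC, 6.85, 9.45 and 11.6 across CEpiLC, 3.54, 3.97 and 4.10 across SOX2-OFF and 8.55, 7.36 and 6.23 across SOX2-ON. No SOX2-OFF library overlapped with any other group, and the other 3 groups overlapped with each other. SOX2-OFF was lower than CEpiLC at -1.23 ± 0.199 (edgeR, adjusted p = 0.000218) and lower than EpiLC at -0.85 ± 0.20 (edgeR, adjusted p = 0.00241). SOX2-ON was higher than SOX2-OFF by 0.89 ± 0.20 (edgeR, adjusted p = 0.00485) and lay 0.04 ± 0.188 from EpiLC (edgeR, adjusted p = 0.874). CEpiLC against EpiLC was 0.38 and SOX2-ON against CEpiLC -0.34, and neither passed (edgeR, adjusted p = 0.121 and 0.137). Both passed without CEpiLC replicate 1, at 0.57 and -0.52 (edgeR, adjusted p = 0.0214 and 0.0230).

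**Figure D3:**
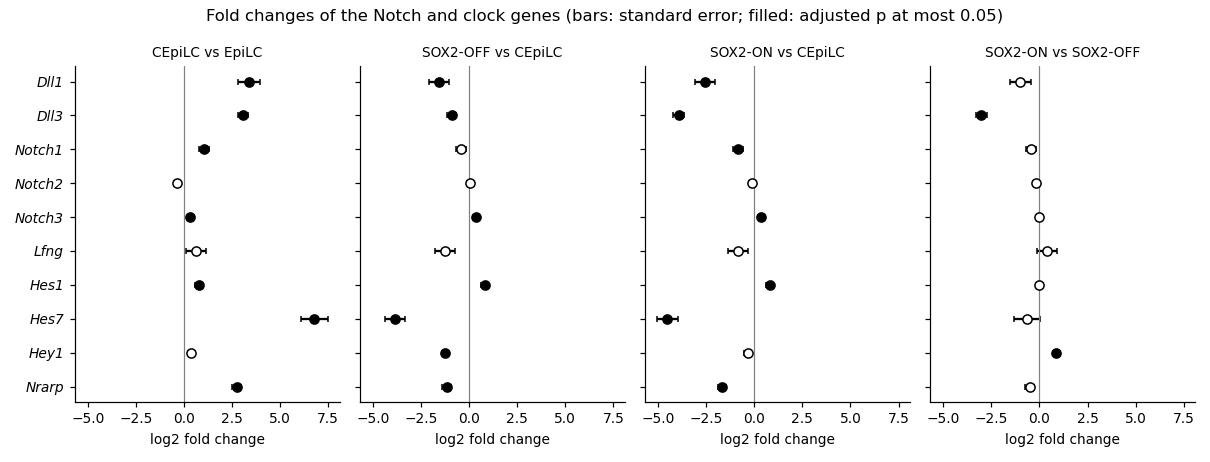
Log2 fold change of each gene in 4 comparisons, with bars for the standard error of the edgeR fit and filled symbols for an adjusted p of at most 0.05. Hes7 moves most, from 6.78 in CEpiLC against EpiLC to -4.51 in SOX2-ON against CEpiLC, and only Dll3 and Hey1 are filled in SOX2-ON against SOX2-OFF.

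The 4 target genes therefore fell into different orders over the same libraries. Hes7 and Nrarp were highest in CEpiLC, Hes1 was highest in the TetON groups, and Hey1 was lowest in SOX2-OFF. Dll1 and Dll3 had their highest level in CEpiLC, as Hes7 and Nrarp had, but Dll3 alone of the 10 genes was lower in SOX2-ON than in SOX2-OFF at the threshold in the model of 12 libraries.

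The spread between replicates was itself unequal across the set. CEpiLC replicate 3 was the highest library of its group for 8 of the 10 genes, where 36.4% of all genes tested were highest in it. The gap between its log2 CPM (log2 counts scaled to library size) and the next library was over 1 for Dll1, Notch1, Lfng and Hes7, at 1.78, 1.04, 2.05 and 1.47, where 1.43% of all genes tested had so large a gap in that library. The whole range of Dll1 within CEpiLC was 2.40 and that of Lfng 2.22 on the log2 scale, and 0.416% and 0.676% of genes had a range at least as wide. Notch3 was steady in the same group, with a range of 0.15. In SOX2-OFF, replicate 3 was highest for 7 of the 10 genes, where 36.3% of all genes were, with ranges of 1.28 for Dll1, 1.27 for Lfng and 1.40 for Hes7. In SOX2-ON, replicate 3 was highest for 1 gene, Hes7, and the range of Lfng was 0.14.

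Of the 7 presomitic genes listed, Tbx6, Msgn1, Rspo3 and Mesp1 moved with these replicates. In CEpiLC, Tbx6 read 10.9, 23.6 and 86.2 TPM, Msgn1 64.5, 95.0 and 364, and Rspo3, which encodes a secreted enhancer of WNT signalling, 47.3, 69.7 and 148. In SOX2-OFF, Tbx6 read 9.46, 10.3 and 18.9 TPM and Msgn1 95.9, 80.3 and 168. Each was highest in replicate 3, as Dll1 and Lfng were. Mesp2, Ripply1 and Ripply2, all under 1 TPM in CEpiLC, were not highest in replicate 3 there. Hes3, a Hes gene known from the neural tube, went the other way in CEpiLC, at 21.4, 13.0 and 1.80 TPM. CEpiLC replicate 3 and SOX2-OFF replicate 3 were also the shallowest libraries of their groups, at 10408242 and 11306390 counts, and the part of depth or of cell make-up in this spread was not tested.

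**Figure D4:**
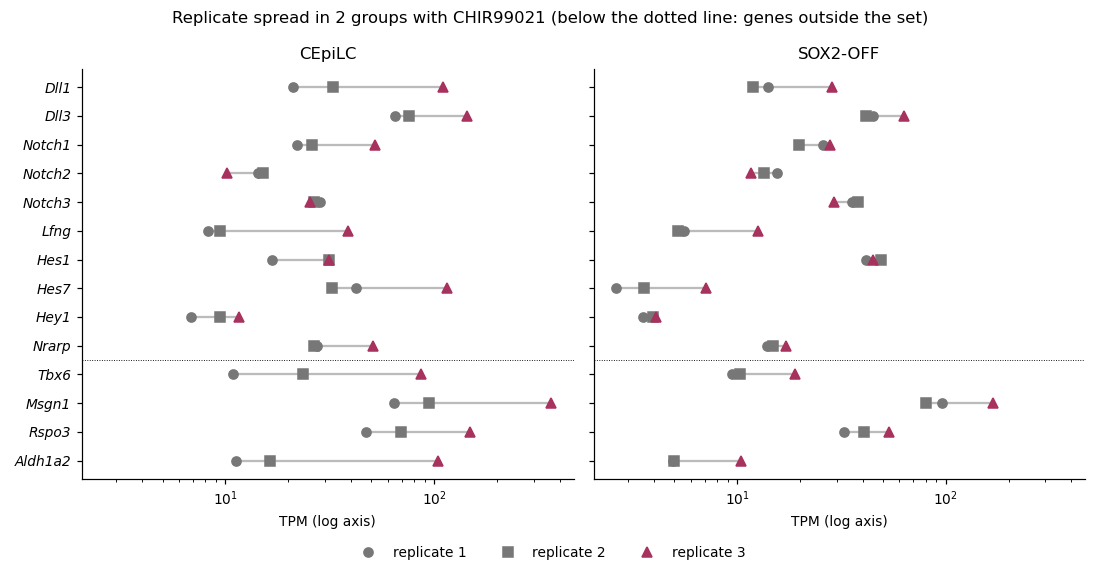
Level in TPM (log axis) of the 10 genes and of Tbx6, Msgn1, Rspo3 and Aldh1a2 in the 3 replicates of CEpiLC and of SOX2-OFF, with a line over the range. In CEpiLC, replicate 3 is far to the right for Dll1 (110 against 21.0 and 32.8), Lfng and the presomitic genes shown, and lies beside replicate 2 for Hes1 or to the left for Notch2 and Notch3.

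The genes whose pattern was most like those of Dll1, Hes7 and Nrarp were ranked by Pearson's r of log2 CPM over the 12 libraries among the 10872 genes whose mean log2 CPM reached 2. For Dll1 they were Aldh1a2 (r = 0.978), Acaa2 (0.955) and Por (0.952). Aldh1a2, which encodes a retinoic acid synthesizing enzyme of the somites, read 11.2, 16.3 and 104 TPM in CEpiLC and at most 10.5 elsewhere. For Nrarp they were Aldh1a2 (0.974), Arid3b (0.963) and Hsp90ab1 (0.962). For Hes7 they were Ripk3 (0.968), Mfsd11 (0.964) and Grn (0.954), of which the last 2 lie on chromosome 11, as Hes7 does, and share its shift between the lines. These correlations are descriptions over libraries that share 4 groups and their depths.

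The rest of the pathway was followed in 53 further genes, of which 47 were tested. In CEpiLC against EpiLC, 18 were higher and 3 lower, with a median log2 fold change of 0.12. The lists were not tested as sets, and the shares and medians over all genes given above are their background. The 10 genes of receptor cleavage, which encode furin, the ADAM proteases and the γ-secretase complex, held 6 that were higher. Of these, Adam10, the protease that cuts ligand-bound receptors, rose from 18.5 to 23.9 TPM in EpiLC to 42.6 to 48.4 in CEpiLC (log2 fold change 1.10 ± 0.0848, edgeR, adjusted p = 5.58e-07), and the γ-secretase subunits Aph1b and Aph1c rose by 1.06 and 1.13. Of 9 genes of receptor turnover and inhibition, 2 fell, the Deltex genes Dtx1 (-1.66 ± 0.141, edgeR, adjusted p = 1.29e-06) and Dtx4 (-1.34 ± 0.140, edgeR, adjusted p = 8.15e-06). Of 7 genes of the nuclear complex, 1 was lower. Among other ligands and receptors, 3 of 4 tested were higher, and Dlk1, a non-canonical ligand, rose by 1.13. Of 8 genes of ligand endocytosis and receptor glycosylation, 4 were higher. Without CEpiLC replicate 3 the calls of Adam10, Aph1b, Dtx1, Dtx4 and Dlk1 remained, whereas Aph1c was at 0.93 and not called (edgeR, adjusted p = 0.0581), nor was it without EpiLC replicate 1 (edgeR, adjusted p = 0.0817).

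Other Hes genes and presomitic partners of the clock gave the largest values. Of the other Hes and Hey genes, 1 of 4 tested was higher, namely Hes3, which had at most 2 counts in any EpiLC library. Its CEpiLC mean was at least 61.4-fold higher, taking 3 counts per library as the floor, though CEpiLC replicate 3 held only 17 counts. Of 5 presomitic genes tested, 4 were higher in CEpiLC. Msgn1 and Mesp1 had 0 counts in EpiLC, and their CEpiLC means were at least 200-fold and 5.80-fold higher. Tbx6 and Rspo3 rose by 6.64 ± 0.849 and 6.65 ± 0.487 on the log2 scale. Mesp1 had 3, 8 and 26 counts in CEpiLC replicates 1, 2 and 3, so its bound rests largely on replicate 3. Without CEpiLC replicate 3, Tbx6 was at 5.42 and Rspo3 at 6.05. Without EpiLC replicate 1 or 2, Mesp1 was not called (edgeR, adjusted p = 0.0573 and 0.0570). Mesp2 was not called. These genes mark the tissue in which the clock runs, and Ripply1 and Ripply2, which act as somites form, were too low to test.

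In the TetON line the same lists split. In SOX2-OFF against CEpiLC, 9 of the 47 were higher and 16 lower, with a median of -0.13. Hes5 fell from 2.12 to 4.35 TPM in CEpiLC to 0.09 to 0.41 in SOX2-OFF (-3.30 ± 0.578, edgeR, adjusted p = 0.000399), Mfng, a glycosyltransferase of the Lfng family, fell by 1.41 and Maml2, a coactivator of the nuclear complex, fell by 1.54. Notch4, Dlk1, Rspo3 and Tbx6 were lower too, at -1.26, -1.25, -1.04 and -1.62. Hes3 was lower at -6.87 ± 1.01 (edgeR, adjusted p = 9.72e-05), but had at most 4 counts in any SOX2-OFF library, so that this size is imprecise. Mesp1, Mesp2 and Neurl1b were higher, by 2.81, 1.34 and 1.04. Without CEpiLC replicate 3, Tbx6, Rspo3 and Mesp2 were at -0.39, -0.45 and 1.26 and not called (edgeR, adjusted p = 0.332, 0.0776 and 0.0764). Tbx6 and Rspo3 were not called either without SOX2-OFF replicate 1 or 2 (edgeR, adjusted p between 0.0519 and 0.0994), and Mesp2 without CEpiLC replicate 1 or 2 or SOX2-OFF replicate 1 or 3 (edgeR, adjusted p between 0.0584 and 0.129). Neurl1b was not called without CEpiLC replicate 1 or 2 or SOX2-OFF replicate 1 or 2 (edgeR, adjusted p between 0.0773 and 0.133).

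In SOX2-ON against CEpiLC, 11 were higher and 19 lower, with a median of -0.14. Receptor cleavage held 7 lower of 10, with Aph1b at -1.46 ± 0.134 (edgeR, adjusted p = 1.32e-06) and Aph1c at -1.44 ± 0.350 (edgeR, adjusted p = 0.00348). Of 5 presomitic genes 4 were lower, Msgn1 at -7.58, Tbx6 at -6.73, Rspo3 at -3.79 and Mesp1 at no more than 2 counts. Msgn1 and Tbx6 had at most 5 and 7 counts in any SOX2-ON library, so that the sizes of their changes are imprecise. Mesp1 was at least 6.08-fold below the CEpiLC mean, which rests largely on CEpiLC replicate 3. Without CEpiLC replicate 3, Msgn1, Tbx6 and Rspo3 were at -6.44, -5.51 and -3.20. Mesp1 was not called without CEpiLC replicate 3 or any 1 of the SOX2-ON replicates (edgeR, adjusted p between 0.0514 and 0.112). Mesp2 rose by 1.76 at levels of at most 1.07 TPM. Hes3 and Hes5 were lower, at -2.81 and -2.07, whereas Hes6, a Hes gene that antagonises HES1, Hey2, Jag1 and Neurl1b rose by 1.28, 1.00, 1.08 and 1.67.

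Within the TetON line, SOX2-ON against SOX2-OFF had 12 of the 47 higher and 13 lower, with a median of 0.09. Jag1 (above), Mfng (2.00 ± 0.203, edgeR, adjusted p = 1.17e-05) and Hes3 (4.06 ± 1.25, edgeR, adjusted p = 0.0272) were higher. Hes3 was not called without SOX2-OFF replicate 1 or 3 or SOX2-ON replicate 1 or 2 (edgeR, adjusted p between 0.0569 and 0.0897). It had at most 4 counts in any SOX2-OFF library. Mfng read 7.18 to 7.61 TPM in SOX2-ON and 1.42 to 2.31 in SOX2-OFF, with the wild-type groups between 4.23 and 6.95. Of 5 presomitic genes 4 were lower, Msgn1 at -7.04 ± 0.998 (edgeR, adjusted p = 0.000344), Tbx6 at -5.11 ± 0.900 (edgeR, adjusted p = 0.000916), Rspo3 at -2.75 ± 0.371 (edgeR, adjusted p = 0.000122) and Mesp1 at least 32.6-fold. The low counts of Msgn1 and Tbx6 in SOX2-ON make these sizes imprecise too. Tbx6 read 0.26 to 0.50 TPM in SOX2-ON, beside 0.37 to 0.41 in EpiLC. Dll1 and Nrarp were lower in every SOX2-ON library than in any SOX2-OFF library, without passing in the model of 12 libraries. When only the 6 libraries compared were fitted, both passed, at -0.99 and -0.50 (edgeR, adjusted p = 0.0319 and 0.0292).

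Against EpiLC, 18 of the 47 were higher and 9 lower in SOX2-ON, and 17 were higher and 12 lower in SOX2-OFF. Dtx1 and Dtx4 were lower in both, at -2.08 and -1.18 in SOX2-ON and at -1.82 and -2.14 in SOX2-OFF. Hes5 was lower in both as well, at -2.10 and -3.34. Jag1, Hes6 and Hey2 rose in SOX2-ON by 1.67, 1.03 and 1.14. Rspo3 was higher in both, by 2.85 in SOX2-ON and 5.6 in SOX2-OFF, and Hes3 exceeded its floor in EpiLC by at least 8.86-fold in SOX2-ON. In SOX2-OFF, Tbx6 was higher by 5.02, Msgn1 at least 130-fold and Mesp1 at least 31.1-fold, and Mfng and Maml2 were lower at -1.81 and -1.3.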

How the data were processed

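Polyadenylated RNA was sequenced as strand-specific, single-end reads of 76 bp. Reads were trimmed by the authors (cutadapt), mapped to mm10 by STAR 2.5.2a and assigned to RefSeq genes by RSEM 1.3.0, without pooling replicates. Per gene and library the authors deposited an RSEM expected count, of which 2.59 to 3.43% per library were not whole, and a TPM value, which was used for levels and shares alone. The expected counts were rounded before fitting, and library totals of 10408242 to 27337740 limit the precision for low genes such as Hes7 in EpiLC. Fold changes against a group with at most 3 counts per library are given as bounds. They set the mean of the higher group against 3 counts and cover counting error in the lower group only, not the spread between libraries.

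Genes passing filterByExpr were fitted with edgeR 4.0.16 (R 4.3.3, TMM scaling, quasi-likelihood test) in one model of all 12 libraries without covariates, and p-values were adjusted over the 14196 genes tested in each of 6 comparisons. The study used DESeq2 with the same threshold. Standard errors were taken from the F statistic. Alternatives were RLE scaling, library size alone, no filter or a minimum CPM of 1 in 3 libraries, DESeq2 1.42.0, limma-voom 3.58.1, the 6 libraries compared alone, the replicate number as a block, removal of each chromosome's median shift, and each replicate left out. One further alternative, leaving out replicate 3 of every group, was chosen after the data were seen.

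The 10 genes, the pathway lists and the marker lists were chosen with earlier results of these data known. The genes named are the 10, Sox2, listed pathway genes called with an absolute log2 fold change over 1, and the 3 genes most like Dll1, Hes7 and Nrarp by Pearson's r. Positions were found for 24076 genes (97.3%) in the RefSeq annotation of GRCm38.p6. After centring on group means, EpiLC and CEpiLC libraries with the same replicate number correlated across genes with r of 0.12, 0.132 and 0.103. Elsewhere 1 or more of the 3 correlations per comparison fell short of 0.1, though replicate 2 reached 0.201 in SOX2-ON against CEpiLC. Libraries with unlike numbers were not compared. Neither these values nor the labels therefore establish that the numbers pair the libraries. The main model leaves the numbers out, and the block fits are alternatives.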

Additional observations from a re-analysis of the deposited data

How the results depend on the processing

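Of 1020 values of the 10 genes under another setting, 929 kept their direction and their side of the threshold, 45 newly passed it, 22 no longer passed it and 24 changed sign. Pathway genes outside the 10 were refitted only with libraries left out. The count of the 10 genes lower in CEpiLC than in EpiLC went from 0 to 1 with RLE scaling, no filter, DESeq2 or the replicate block (all 12 or only the 6 libraries), ran from 0 to 1 with single replicates left out, and was 2 without replicate 3 of every group. In SOX2-ON against SOX2-OFF, the count of lower genes went from 1 to 4 with only the 6 libraries, 2 with the replicate block and 3 with both, and that of higher genes from 1 to 2 without replicate 3 of every group. For SOX2-ON against EpiLC the lower genes went from 2 to 1 in limma-voom and ran from 1 to 2 with single replicates left out. For SOX2-OFF against EpiLC they went from 1 to 2 with library size alone, DESeq2, only the 6 libraries, or the replicate block in 12 or 6 libraries, ran from 1 to 2 with single replicates left out, and were 3 without replicate 3 of every group. The cause of these moves was not tested.

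Signs turned mostly in values near 0. With single replicates left out, the log2 fold change of Lfng ran from -0.42 to 1.00 in CEpiLC against EpiLC and from -1.21 to 0.20 in SOX2-ON against CEpiLC, and without replicate 3 of every group it was -0.62 and 0.22. In SOX2-OFF against CEpiLC, Notch1 ran from -0.64 to 0.053 and Notch2 from -0.10 to 0.13, and Notch2 was -0.0097 with library size alone and -0.014 without replicate 3 of every group. In SOX2-ON against SOX2-OFF, Notch3 ran from -0.090 to 0.088 and was -0.0029 in limma-voom and -0.0031 without replicate 3 of every group. Hes1 in the same comparison ran from -0.075 to 0.059 and was 0.016 with library size alone, 0.0058 with the chromosome shift removed and 0.058 without replicate 3 of every group. Hey1 in SOX2-ON against EpiLC ran from -0.10 to 0.16.

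With the replicate number as a block, 55 of the 60 values of the 10 genes were the same in direction and call, 4 newly passed and 1 changed sign (Hes1 in SOX2-ON against SOX2-OFF, 0.0071, or 0.0026 in a block fit of those 6 libraries). The 4 were Notch2 in CEpiLC against EpiLC (given above), Hes7 in SOX2-ON against SOX2-OFF (-0.75, edgeR, adjusted p = 0.0316), and Notch1 and Notch2 in SOX2-OFF against EpiLC (0.59 and -0.32, edgeR, adjusted p = 0.0361 and 0.0172). Over all genes the block moved the calls from 5994 to 6491 in CEpiLC against EpiLC and by smaller factors than 1.5 elsewhere. Depth limits Hes7 in EpiLC, where it had 3 to 6 counts.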

Other observations

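Lfng was the gene whose calls changed most when replicate 3 of every group was left out, a setting chosen after the data were seen. The 2 remaining libraries of each group then gave a lower level in CEpiLC than in EpiLC (log2 fold change -0.62, edgeR, adjusted p = 0.00944) and a lower level in SOX2-OFF than in CEpiLC (-0.70, edgeR, adjusted p = 0.00539). SOX2-ON was higher than SOX2-OFF by 0.92 (edgeR, adjusted p = 0.00209). Both TetON groups were lower than EpiLC, at -0.40 in SOX2-ON and -1.32 in SOX2-OFF (edgeR, adjusted p = 0.0466 and 4.89e-05). The highest CEpiLC and SOX2-OFF libraries of Lfng were among those left out here. So was the lowest EpiLC library, at 8.09 TPM against 14.7 and 12.2. As the setting was chosen after the data were seen, its p-values cannot decide the direction of Lfng. With all 12 libraries Lfng passed in 0 of the 6 comparisons (1 at an unadjusted p under 0.05, and 0 in DESeq2 and limma-voom). In the same setting Dll1 was higher in SOX2-ON than in EpiLC (1.13, edgeR, adjusted p = 0.00128), which it was not with 12 libraries. The highest EpiLC library of Dll1, at 7.27 TPM, was among those left out.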
